A study of Homo sapiens with 6 samples.

Results

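The 9 genes described here encode the machinery that adds a phosphate to the alpha subunit of translation initiation factor eIF2 and takes it off again. They are the kinases EIF2AK1, EIF2AK2, EIF2AK3 and EIF2AK4, the phosphatase regulators PPP1R15A and PPP1R15B, the adaptors NCK1 and NCK2 and the co-chaperone DNAJC3. The genes were chosen by name as members of this pathway, by a rule that uses no measured value beyond a gene being listed, although earlier results of these data were known. All 9 were present among the 11048 gene symbols listed in each library, and their lowest value in any library was 24.6 CPM, where CPM is the number of reads on a gene divided by the library total and expressed per 1e6 reads. None was therefore lost to a filter on low values.

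The samples were MM1.S cells, a human multiple myeloma cell line, and each group had 2 RNA sequencing libraries. The control group received the vehicle DMSO, and the treated groups received 3 µM CCF642 or 3 µM CCF642-34, each for 6 h. Both compounds inhibit PDIA1, a protein disulfide isomerase of the endoplasmic reticulum (ER), and CCF642-34 is an analogue of CCF642. The design allows each compound to be set against the vehicle and the analogue against its parent, for a single cell line, dose and time.

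Phosphorylated eIF2 holds back the exchange factor eIF2B, so that general initiation of translation slows while a few mRNAs, among them that of the transcription factor ATF4, are translated better. Each kinase is known for its own trigger. EIF2AK1 (HRI) responds to lack of heme and to mitochondrial stress, EIF2AK2 (PKR) to double-stranded RNA, EIF2AK3 (PERK) to unfolded proteins in the ER and EIF2AK4 (GCN2) to uncharged tRNA and stalled ribosomes. Protein phosphatase 1 removes the phosphate when a regulatory subunit brings it to eIF2, either the inducible PPP1R15A (GADD34) or the constitutive PPP1R15B (CReP). Plasma cells and myeloma cells, which secrete large amounts of immunoglobulin, are known for a heavily used ER stress response.

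The promoter windows below are shown because PPP1R15A, PPP1R15B and DNAJC3 rose with both compounds and each window holds letters of a known stress element, or parts of one. They are from RefSeq on GRCh38.p14, which held a promoter for 8 of the 9 genes (all but EIF2AK1), and are written 5′ to 3′ on the strand of the gene. The capitals mark the motif letters found by a search of both strands over 250 bases before the start site.
PPP1R15A, chr19:48872301-48872390, plus strand: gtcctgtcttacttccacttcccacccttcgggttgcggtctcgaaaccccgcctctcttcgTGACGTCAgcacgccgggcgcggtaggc
PPP1R15B, chr1:204411978-204412067, minus strand: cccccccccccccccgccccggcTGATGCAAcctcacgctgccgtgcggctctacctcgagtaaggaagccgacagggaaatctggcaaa
DNAJC3, chr13:95676949-95677073, plus strand: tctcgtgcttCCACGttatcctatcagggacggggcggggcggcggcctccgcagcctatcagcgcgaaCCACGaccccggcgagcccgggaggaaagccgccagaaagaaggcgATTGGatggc

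The capitals of PPP1R15A are the cAMP response element TGACGTCA, which reads the same on both strands, at −58 to −51 from the start site. This element stood in 1.65% of the 35116 promoters of the table and in 2.48% of those of genes listed here, and PPP1R15A was the only one of the 8 that held it. The capitals of PPP1R15B match TGATGNAA, the letters of the C/EBP-ATF response element, at −227 to −220, which 3.14% of all promoters and 1.69% of those of listed genes held and none of the other members matched did. In DNAJC3 the capitals are CCACG and the reverse strand of CCAAT. The ER stress element is CCAAT, then 9 bases, then CCACG on the same strand. The copies in DNAJC3 lie on opposite strands and do not form it. The letters CCACG were found in 33.5% of all promoters and 42.9% of those of listed genes, and CCAAT in 32% and 33.4%. Among the members, EIF2AK2, EIF2AK4 and PPP1R15A also held CCACG, and EIF2AK2, EIF2AK3, PPP1R15B, NCK1 and NCK2 also held CCAAT. EIF2AK2 and NCK2 were lower with both compounds, so these letters were not particular to members that rose. EIF2AK3 and NCK1 also rose with both compounds, and their promoters are not shown. The full ER stress element stood in 0.074% of all promoters and 0.13% of those of listed genes, and in none of the 8. The promoter of EIF2AK3 held CCAAT on either strand but none of the other motifs searched, and TGACGTGG, a binding site of ATF6 found in 0.612% of promoters and 0.704% of those of listed genes, was in none of the 8. Read on its other strand, TGACGTGG includes the letters CCACG. These matches describe the letters of these windows only.

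The libraries held between 20567313 and 28459677 reads, and the members were counted with 526 reads (NCK1, DMSO) to 21841 reads (PPP1R15A, CCF642-34) in a library. Values of a member in the replicates of a group differed by at most 1.14-fold. The labels do not say that replicates came from separate cultures, so p-values measure the spread between these libraries, which may be technical, and without molecular identifiers a counting error covers the counting of reads only. The 8 plasma cell markers checked were all listed, SDC1 and TNFRSF17 (BCMA) among them, and their summed level was 8649 to 8707 CPM with DMSO, 5785 to 5841 CPM with CCF642 and 6593 to 6635 CPM with CCF642-34. JCHAIN, the immunoglobulin joining chain, made up much of the sum and of its fall, with means of 4319, 1833 and 2348 CPM. Of 10 markers of other cell types, 5 were listed (CD3E, HBB, EPCAM, PECAM1 and COL1A1), with summed levels of 9.87 to 10.7, 18.37 to 18.38 and 13.9 to 14.0 CPM, and CD8A, CD14, LYZ, ALB and GFAP were not. COL1A1 made up most of the rise of this sum with CCF642, with means of 1.29, 9.76 and 3.13 CPM in the same order of groups. The part of these shifts in the results was not tested, and in bulk RNA fewer cells and less RNA per cell cannot be told apart.

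Both compounds raised the phosphatase regulators and the ER kinase EIF2AK3, while the other kinases moved by at most 0.30 on the log2 scale. With CCF642-34, 5 of the 9 members were higher and 2 lower than with DMSO at an adjusted p under 0.05 in limma, where 29.7% of all genes were higher, 27.9% lower and 57.6% called in either direction. With CCF642, 6 members were higher and 3 lower, beside 31.8% and 31.3% of all genes and 63.1% in either direction. At 2-fold or more with the same adjusted p, 2 members were called with CCF642-34 and 3 with CCF642, where the shares of all genes were 3.87% and 6.49%. The median log2 fold change of the members was 0.31 with CCF642-34 and 0.30 with CCF642, against 0.0067 and −0.0066 over all genes. Calls of small changes among the members are to be read beside these shares. Both comparisons use the same DMSO libraries, so they are set side by side here and not correlated.

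**Figure D1:**
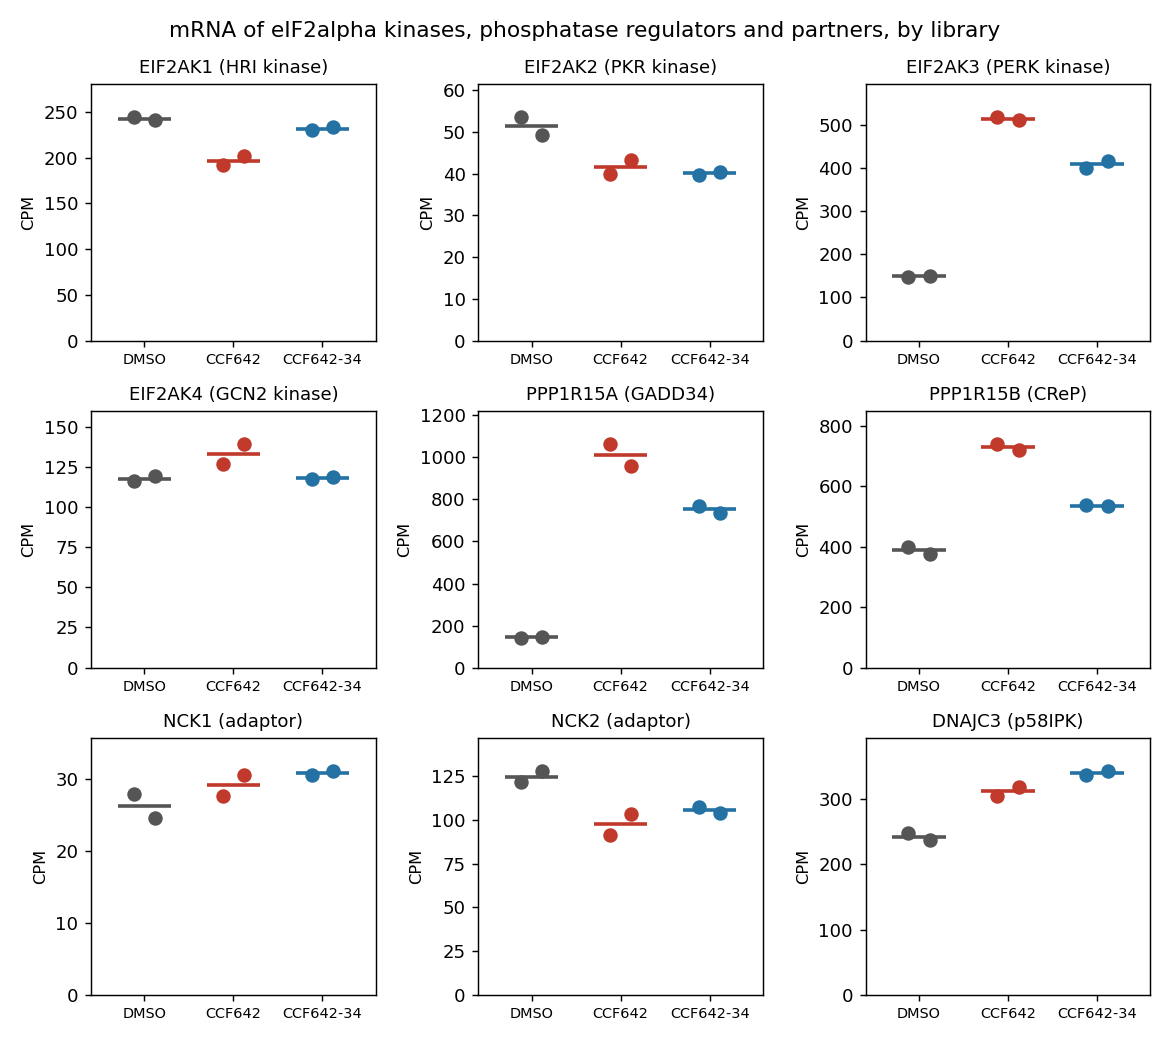
CPM of the 9 members in each library (y axes, from 0), with a panel per gene and the groups DMSO, CCF642 and CCF642-34 along the x axis; points are libraries and bars the mean of 2. The treated libraries of EIF2AK3 (402 to 519 CPM) and PPP1R15A (737 to 1062 CPM) lie far above DMSO (148 to 149 and 143 to 145 CPM).

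PPP1R15A, the stress-induced subunit that directs phosphatase 1 to eIF2, rose most. It stood at 143 and 145 CPM in the DMSO libraries, at 1062 and 957 CPM with CCF642 and at 767 and 737 CPM with CCF642-34. All treated libraries were above both controls, and the 3 groups did not overlap. Such separation is common with 2 libraries per group. As deposited, it held for 79.3% of all genes with CCF642-34 against DMSO, 81.7% with CCF642 and 65.1% between the compounds. Statements of separation for the members below are to be read beside these shares. The increase was 5.52-fold with CCF642-34 (95% interval 5.21 to 5.85, log2 fold change 2.46 ± 0.041 SE, limma adjusted p = 4.65e-42) and 7.63-fold with CCF642 (7.20 to 8.08, log2 fold change 2.93 ± 0.041, adjusted p = 1.44e-45). These fold changes are on the log2(CPM + 1) scale, as are all below. Ordered from the largest increase, PPP1R15A was number 24 of 11048 genes with CCF642-34 and number 21 with CCF642.

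PPP1R15B, the subunit known to serve unstressed cells, rose less. Its values were 399 and 378 CPM with DMSO, 739 and 722 CPM with CCF642 and 538 and 536 CPM with CCF642-34, again without overlap of the groups. The log2 fold change was 0.56 ± 0.038 (SE) with CCF642-34 (limma adjusted p = 2.79e-17) and 1.04 ± 0.038 with CCF642 (adjusted p = 4.22e-28). Only with CCF642 did it reach 2-fold, and with library size alone in place of TMM scaling, which corrects library totals for differences in RNA composition, that value was 0.91, under the 2-fold limit.

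Per kilobase of the median protein-coding transcript, the ratio of PPP1R15A to PPP1R15B was 0.946 ± 0.0473 (SD, n = 2) with DMSO, 3.52 ± 0.197 with CCF642 and 3.57 ± 0.0938 with CCF642-34. By this length PPP1R15A had the lower level of the pair in both DMSO libraries (ratios of 0.913 and 0.980) and the higher level in every treated library. The levels were close with DMSO, and the median length of PPP1R15A, 2051.5 bases, comes from only 2 coding transcripts. A shorter length would raise the ratios and was not tried, so the order with DMSO is not settled. With 2 libraries per group, an exact permutation test of a single ratio cannot go below p = 0.333, and none is given. With the longest transcript the ratios were 0.816, 3.04 and 3.08.

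Among the kinases, EIF2AK3, which senses unfolded proteins in the ER, changed most. Its values were 148 and 149 CPM with DMSO, 519 and 511 CPM with CCF642 and 402 and 417 CPM with CCF642-34. The groups were separate, with CCF642 highest. The increase was 2.91-fold with CCF642-34 (95% interval 2.75 to 3.09, log2 fold change 1.54 ± 0.041 SE, limma adjusted p = 1.04e-33) and 3.78-fold with CCF642 (3.57 to 3.998, log2 fold change 1.92 ± 0.041, adjusted p = 7.07e-38). It was number 101 and number 84 from the largest increase. Exons of AC062029.1 and AC104134.1, on the opposite strand in GENCODE 29, overlap those of EIF2AK3, and the sources used here do not state whether the counting used strand.

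EIF2AK1, the heme-regulated kinase, was at 244 and 241 CPM with DMSO, 192 and 201 CPM with CCF642 and 230 and 233 CPM with CCF642-34. As deposited the groups did not overlap, and CCF642 was lowest. Between CCF642-34 and DMSO 79.3% of all genes were separate in this way. On TMM-scaled values CCF642-34 (233.1 and 235.1 CPM) lay above DMSO (232.0 and 229.0 CPM) rather than below it. EIF2AK1 fell with CCF642 (log2 fold change −0.17 ± 0.044 SE, limma adjusted p = 0.000945). With CCF642-34 it did not pass the test (0.02, 95% interval −0.07 to 0.11, adjusted p = 0.684), and the sign of that value depends on the scaling, since it was −0.07 with library size alone. AIMP2, on the opposite strand, shares bases with its exons.

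EIF2AK4, the sensor of amino acid lack, was at 116 and 119 CPM with DMSO, 127 and 139 CPM with CCF642 and 118 and 119 CPM with CCF642-34. The CCF642 libraries were the highest, while the deposited values of CCF642-34 lay within the range of DMSO. On TMM-scaled values CCF642-34 (119.1 and 119.6 CPM) lay above DMSO (110.2 and 113.3 CPM). On that scale 78.9% of all genes were separate between these groups. EIF2AK4 rose with CCF642 (0.30 ± 0.052 SE, limma adjusted p = 1.92e-06). With CCF642-34 the value was 0.09 (95% interval −0.01 to 0.20, adjusted p = 0.120).

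EIF2AK2, the kinase of the antiviral response, had the fewest reads of the kinases, with 49.3 to 53.6 CPM under DMSO, 40.01 to 43.3 CPM under CCF642 and 39.7 to 40.5 CPM under CCF642-34. It was lower in all treated libraries. The log2 fold change was −0.26 ± 0.073 (SE) with CCF642-34 (limma adjusted p = 0.00178) and −0.17 ± 0.073 with CCF642 (adjusted p = 0.0431). Neither call held without DMSO replicate 1 (−0.21 and −0.11), nor did that of CCF642 without CCF642 replicate 1 (−0.11) or with DESeq2 (−0.17). GPATCH11 and AC007899.1, on the opposite strand, overlap its exons.

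Per kilobase, EIF2AK3 made up 8.55 ± 0.122% (SD, n = 2) of the summed level of the 4 kinases with DMSO, 27.8 ± 0.9993% with CCF642 and 21.4 ± 0.303% with CCF642-34. EIF2AK1 made up 75.3 ± 0.0333%, 57.4 ± 0.464% and 65.5 ± 0.256%. The share of EIF2AK3 was higher in each treated library than in each DMSO library, and that of EIF2AK1 lower. The shares depend strongly on the transcript length used, because the coding transcripts of EIF2AK1 have a median length of 782 bases and a longest one of 4469. By the longest transcripts EIF2AK1 made up 47.9% and 48.4% in the DMSO libraries. Its share was then 23.7% and 24.4% with CCF642 and 31.1% and 31.5% with CCF642-34. With the longest transcripts the share of EIF2AK3 was 28.4%, 60.5% and 53.3%, so that its rise is seen with either length, while its rank in the treated groups is the highest of the kinases only with the longest. The summed level of the phosphatase regulators over that of the kinases was 0.351 ± 0.00151 with DMSO, 1.44 ± 0.124 with CCF642 and 1.04 ± 0.0374 with CCF642-34. With the longest transcripts it was 1.20, 3.08 and 2.53.

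Over the 9 members, PPP1R15A had the highest level per kilobase in both treated groups, 492 ± 36.1 CPM per kilobase (SD, n = 2) with CCF642 and 367 ± 10.5 with CCF642-34, against 70.3 ± 0.772 with DMSO, where EIF2AK1 was highest at 310 ± 3.09. By median length, EIF2AK1, PPP1R15B and EIF2AK3 followed in both treated groups at 252, 140 and 122 CPM per kilobase with CCF642 and 296, 103 and 97.0 with CCF642-34. The DMSO order after EIF2AK1 was NCK2, PPP1R15B, PPP1R15A, DNAJC3, NCK1, EIF2AK3, EIF2AK2 and EIF2AK4. Neighbours in these orders overlapped only for EIF2AK2 and EIF2AK4 with DMSO and for DNAJC3 and NCK2 with CCF642. By the longest transcripts PPP1R15A was again the highest member in both treated groups, at 424 and 316 CPM per kilobase, but PPP1R15B, EIF2AK3, DNAJC3 and then EIF2AK1 followed, with EIF2AK1 at 44.0 and 51.8, and PPP1R15B was highest with DMSO at 74.3. EIF2AK1 was then number 3 and NCK1 number 8 with DMSO. The median lengths of EIF2AK1 and NCK1, 782 and 581 bases, are far below their longest of 4469 and 2403.

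DNAJC3, or p58IPK, is a partner of the ER chaperone HSPA5 (BiP) and was first described as an inhibitor of EIF2AK2. It was at 248 and 237 CPM with DMSO, 305 and 319 CPM with CCF642 and 337 and 342 CPM with CCF642-34. All treated libraries were above the controls, and as deposited the CCF642-34 libraries were the highest. The log2 fold change was 0.58 ± 0.042 (SE) with CCF642-34 (limma adjusted p = 2.27e-16) and 0.50 ± 0.042 with CCF642 (adjusted p = 2.07e-14).

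The adaptors NCK1 and NCK2, which link receptors to the actin cytoskeleton and of which NCK1 is reported to bring phosphatase 1 to eIF2, moved in opposite directions and little. NCK1 lay at 24.6 to 27.9 CPM with DMSO, 27.6 to 30.6 CPM with CCF642 and 30.5 to 31.01 CPM with CCF642-34. The CCF642 values overlapped those of DMSO as deposited. On TMM-scaled values they did not (28.6 and 32.0 CPM against 26.5 and 23.3 CPM), as for 79.4% of all genes. NCK1 rose by a log2 value of 0.31 ± 0.087 (SE) with CCF642-34 (limma adjusted p = 0.00217) and 0.27 ± 0.087 with CCF642 (adjusted p = 0.00577). Neither call held without DMSO replicate 2 (0.22 and 0.19), nor did that of CCF642 without CCF642 replicate 2 (0.20) or with library size alone (0.14). Exons of IL20RB, on the same strand, overlap NCK1, so reads of the pair may be shared.

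NCK2 was at 122 and 128 CPM with DMSO, 91.3 and 104 CPM with CCF642 and 107 and 104 CPM with CCF642-34. It was lower in every treated library. The log2 fold change was −0.15 ± 0.056 (SE) with CCF642-34 (limma adjusted p = 0.0227) and −0.22 ± 0.056 with CCF642 (adjusted p = 0.000626). The first call was lost without DMSO replicate 2 (−0.11) or without CCF642-34 replicate 2 (−0.12), and the second without CCF642 replicate 1 (−0.13). AC010978.1, on the opposite strand, overlaps its exons.

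**Figure D2:**
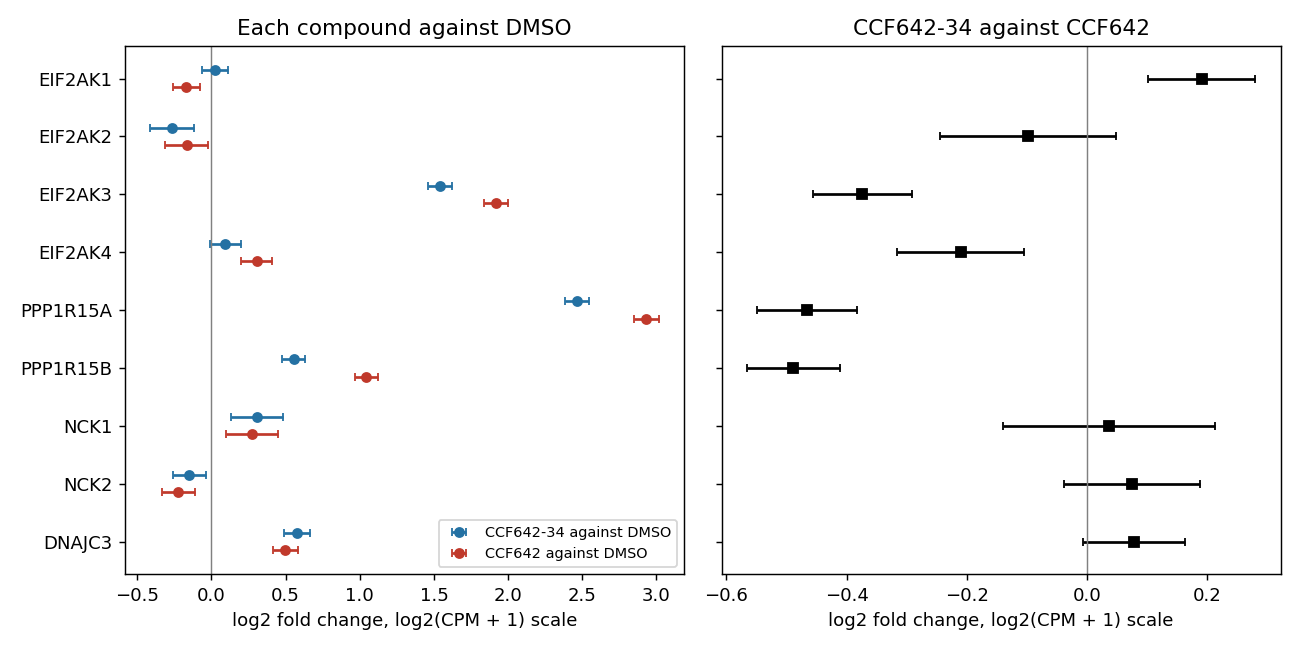
Log2 fold change of each member on the log2(CPM + 1) scale (x axes, which differ between panels), against DMSO on the left and of CCF642-34 against CCF642 on the right; points are estimates from limma and bars 95% intervals, with 2 libraries per group. PPP1R15A (2.46 and 2.93) and EIF2AK3 (1.54 and 1.92) lie far to the right on the left panel, and on the right panel PPP1R15B, PPP1R15A, EIF2AK3 and EIF2AK4 lie below 0 and EIF2AK1 above it.

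The compounds were then compared directly, at the same dose and time. CCF642-34 gave lower values than CCF642 for both phosphatase regulators, for EIF2AK3 and for EIF2AK4, and a higher value for EIF2AK1. Thus 1 member was higher and 4 were lower, where 15.9% of all genes were higher, 17.4% lower and 33.4% called in either direction. At 2-fold 0 members were called with limma, edgeR or DESeq2, beside 0.308% of all genes with limma. The median log2 difference of the members was −0.10, against 0.0093 over all genes.

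PPP1R15B differed by −0.49 on the log2 scale (95% interval −0.57 to −0.41, limma adjusted p = 1.45e-14), and 4.63% of all genes had a larger absolute difference. PPP1R15A differed by −0.47 (−0.55 to −0.38, adjusted p = 7.96e-13) and EIF2AK3 by −0.37 (−0.46 to −0.29, adjusted p = 3.73e-10), with 5.26% and 10.2% of genes beyond them. For these genes each CCF642-34 library was below each CCF642 library. As deposited, libraries of the compounds were apart, in either direction, for 65.1% of all genes. The 2 phosphatase regulators thus differed between the compounds by near the same log2 value, although the rise of PPP1R15A against DMSO was far the larger.

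EIF2AK4 was lower with CCF642-34 by a log2 difference of −0.21 (95% interval −0.32 to −0.10, limma adjusted p = 0.00144), which no longer passed without CCF642 replicate 2 (−0.14). EIF2AK1 was higher by 0.19 (0.10 to 0.28, adjusted p = 0.000637), and on the TMM-scaled values its 233.1 and 235.1 CPM with CCF642-34 lay above both other groups (199.7 and 210.5 CPM with CCF642, 232.0 and 229.0 CPM with DMSO). No difference was detected for EIF2AK2 (−0.10, interval −0.24 to 0.05, adjusted p = 0.320), NCK1 (0.04, −0.14 to 0.21, adjusted p = 0.789), NCK2 (0.07, −0.04 to 0.19, adjusted p = 0.324) or DNAJC3 (0.08, −0.01 to 0.16, adjusted p = 0.153). These intervals leave room for differences of up to about the size seen for EIF2AK4, and they do not show that the compounds act alike on these genes. DNAJC3 passed the test with library size alone (0.12) and without CCF642 replicate 2 (0.12), and NCK2 without that library (0.17). Without CCF642 replicate 1 the values of NCK1 and NCK2 were −0.04 and −0.02.

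For the members whose group means spanned at least 1 on the log2 scale, the genes with the most similar profile over the 6 libraries were taken by root mean square difference of mean-centred log2 values among 8923 genes. Nearest to EIF2AK3 were RNF122, a ring finger protein (0.0636), ZFAND2A, a zinc finger protein induced by arsenite (0.0710), and SRXN1, which repairs oxidized peroxiredoxins (0.0784). Nearest to PPP1R15A were the non-coding MIR22HG (0.0919), SEMA7A, a membrane-anchored semaphorin (0.0962), and CDKN1A, the cell cycle inhibitor p21 (0.116). PPP1R15B had closer neighbours, namely FEM1C, a substrate receptor of a ubiquitin ligase (0.0359), TRAF6, a signaling ubiquitin ligase (0.0368), and CCNH, a cyclin of the CDK-activating kinase (0.0379). With CCF642-34 and CCF642 the log2 fold changes were 1.65 and 1.96 for RNF122, 2.63 and 2.90 for MIR22HG and 0.57 and 1.04 for FEM1C, a description of genes chosen for this likeness.

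**Figure D3:**
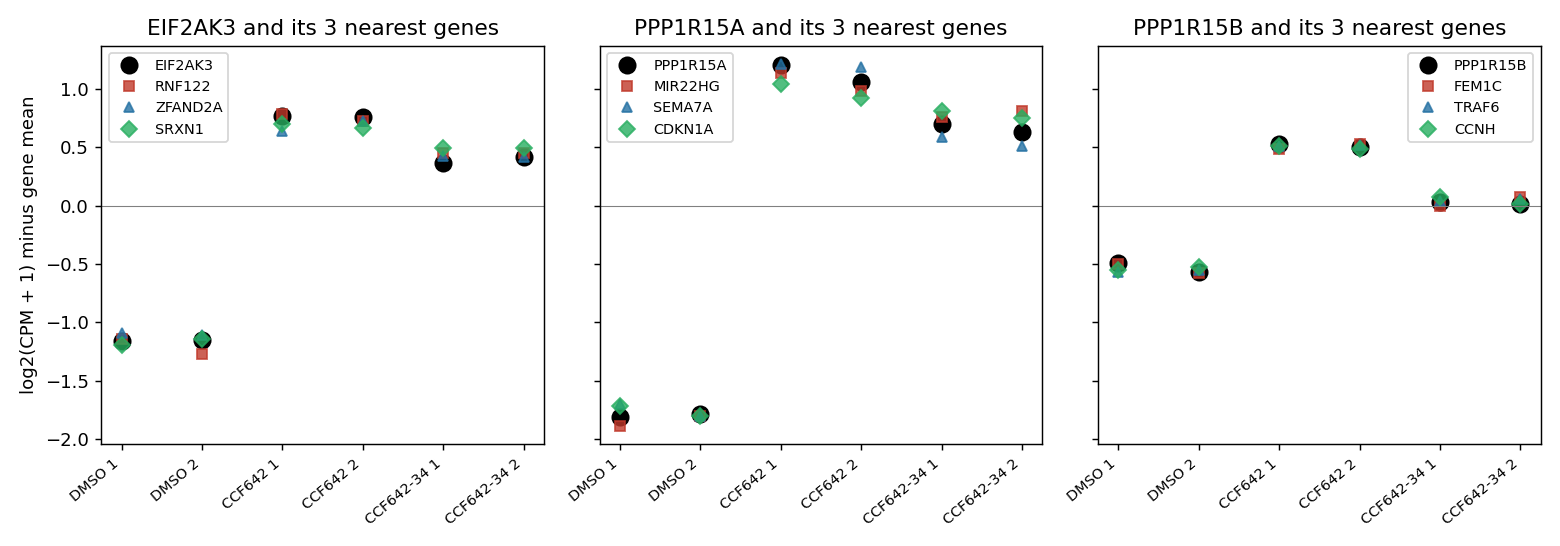
TMM-scaled log2(CPM + 1) minus the mean of the gene over the 6 libraries (y axis) for EIF2AK3, PPP1R15A and PPP1R15B (black circles) and their 3 nearest genes (colored symbols), by library along the x axis. In each panel DMSO libraries are lowest and CCF642 libraries highest, with CCF642-34 between, and the neighbours of PPP1R15B lie closest to it (0.0359 to 0.0379).

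The genes around the members were examined by list. The list named eIF2 and eIF2B held the subunits of eIF2, the substrate, and of eIF2B, its exchange factor. It also held EIF5, EIF2A, EIF2D, DENR and MCTS1, which are subunits of neither, so its counts do not describe eIF2 and eIF2B alone. Among these 13 genes 6 rose, 1 fell and 6 did not pass with CCF642-34 (median log2 fold change 0.15). With CCF642 4 rose, 2 fell and 7 did not pass (median 0.07). Over all genes 57.6% and 63.1% were called with CCF642-34 and CCF642, so the called share of this list was below that of all genes with both. EIF5, the GTPase activator of eIF2, rose by 0.98 and 1.05 with CCF642-34 and CCF642 and EIF2S2, the beta subunit, by 0.83 and 0.82, while EIF2B5, the catalytic subunit of eIF2B, fell by 0.12 with each. EIF2S1, the phosphorylated subunit itself, which was singled out after its values were seen, had 88.0 ± 1.25 CPM (SD, n = 2) with DMSO, 80.2 ± 2.67 with CCF642 and 87.3 ± 4.05 with CCF642-34 and did not pass with either compound (limma adjusted p = 0.9896 for CCF642 and 0.249 for CCF642-34). Between the compounds 0 of the 13 passed in limma, where 1 had an unadjusted p under 0.05, and 1 passed with edgeR and 0 with DESeq2, the differences lying between −0.10 and 0.20 (median 0.03). The limma share of all genes called there was 33.4%.

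Of the catalytic subunits and inhibitors of phosphatase 1, 6 of 8 were listed (PPP1R10 and PPP1R11 were not), and 3 rose with CCF642-34 (median 0.16) while 4 rose and 1 fell with CCF642 (median 0.19). The called share was below that of all genes with CCF642-34 (57.6%) and above it with CCF642 (63.1%). PPP1R2, an inhibitor, rose by 0.68 and 0.49 with CCF642-34 and CCF642, and the catalytic subunit PPP1CB by 0.37 and 0.47. Between the compounds 2 were higher and 1 lower with CCF642-34 (median 0.08), beside 33.4% of all genes called.

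Of the genes that regulate the kinases, 13 of 15 were listed (DELE1 and MAP3K20 were not). With CCF642-34 8 rose and 1 fell (median 0.18), and with CCF642 6 rose and 2 fell (median 0.13). The shares of all genes called were 57.6% and 63.1%. HSPA5, which holds EIF2AK3 inactive in unstressed cells, went from 1329 ± 2.50 CPM (SD, n = 2) to 2320 ± 17.5 with CCF642-34 and 2894 ± 56.3 with CCF642 (log2 fold changes 0.89 and 1.26). HSPA8, a cytosolic chaperone, rose by 0.40 and 0.84. GCN1, the partner of EIF2AK4 on the ribosome, fell by 0.26 with CCF642-34, and with CCF642 a value of −0.08 did not pass (limma adjusted p = 0.114). CCF642-34 gave higher values than CCF642 for 4 genes of this list and lower values for 6 (median 0.03), with HSPA5 at −0.36 and HSPA8 at −0.44. That comparison called 33.4% of all genes.

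Downstream, 23 of 25 genes of ATF4 and its targets were listed (STC2 and NUPR1 were not), a list that holds genes already known to rise in these libraries and is no independent evidence of direction. With CCF642-34 22 rose and 1 fell (median 1.92), and with CCF642 22 rose and 1 did not pass (median 1.98). Over all genes 57.6% and 63.1% were called. ATF3 went from 22.9 ± 0.105 CPM (SD, n = 2) to 856 ± 3.999 with CCF642-34 and 1406 ± 36.8 with CCF642, and TRIB3, a pseudokinase, from 26.9 ± 2.27 to 526 ± 10.6 and 467 ± 7.66. ATF5 fell by 0.25 with CCF642-34 (limma adjusted p = 0.0298) while 0.15 with CCF642 did not pass (adjusted p = 0.179). Between the compounds 3 were higher and 9 lower with CCF642-34 (median −0.06), beside 33.4% of all genes called.

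The list of the double-stranded RNA and interferon response, the setting of EIF2AK2, was mixed. Of its 17 listed genes (IFIT1 and IFIT2 were not listed) 6 rose and 4 fell with CCF642-34 (median 0.0093), and 6 rose and 3 fell with CCF642 (median 0.13), shares close to the 57.6% of all genes called with CCF642-34 and below the 63.1% with CCF642. DDX58, the RNA sensor RIG-I, rose by 0.81 and 0.95 with CCF642-34 and CCF642. STAT2 fell by 0.25 with CCF642-34, while its value of 0.07 with CCF642 did not pass (limma adjusted p = 0.192). In the direct comparison the analogue gave higher values for 2 of them and lower values for 7 (median −0.13), beside 33.4% of all genes called.

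All 9 genes in the list of ER partners of HSPA5 were listed, and 7 rose with CCF642-34 (median 0.41) while 7 rose and 1 fell with CCF642 (median 0.36). Beside DNAJ proteins, to which DNAJC3 belongs, the list held SIL1, HYOU1 and HSP90B1, which are not DNAJ proteins. Its counts therefore do not describe the DNAJ proteins alone. Among all genes 29.7% and 31.8% were higher, and 57.6% and 63.1% were called in either direction. DNAJB9 (ERdj4) rose by 1.84 and 1.89 and DNAJC25 by 0.77 and 0.93, so the rise of DNAJC3 (0.58 and 0.50) was smaller than theirs. Between the compounds 3 were higher and 1 lower with CCF642-34 (median 0.05), beside 33.4% of all genes called. Of 12 binding partners of NCK, 11 were listed (DOCK1 was not), with 2 higher and 5 lower with CCF642-34 (median −0.05) and 2 higher and 3 lower with CCF642 (median −0.06), beside 57.6% and 63.1% of all genes called in either direction. ABI1 rose by 0.34 and 0.23 and WIPF2 by 0.15 and 0.44, both actin regulators, while CBL, a ubiquitin ligase, fell by 0.59 and 0.68 and SOS1, an activator of RAS, by 0.37 and 0.16. Between the compounds 2 were higher and 2 lower (median 0.0019), beside 33.4% of all genes called.

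The other ER stress sensors were ERN1, ATF6 and ATF6B. ERN1 (IRE1) went from 319 ± 0.430 CPM (SD, n = 2) to 640 ± 4.51 with CCF642-34 and 663 ± 2.87 with CCF642, log2 fold changes of 1.09 and 1.19. ATF6 fell by 0.18 and 0.22, and ATF6B did not pass (0.03 and −0.10, limma adjusted p = 0.809 and 0.420). Between the compounds ERN1 differed by −0.10 (limma adjusted p = 0.0437) and EIF2AK3 by −0.37. Of the plasma cell markers, SDC1 fell by 1.12 and 1.67 and TNFRSF17 by 0.81 and 1.06 with CCF642-34 and CCF642, and IRF4 rose by 1.11 and 0.90. In all, 1 of the 8 rose and 5 fell with CCF642-34, and 3 rose and 5 fell with CCF642. The shares of all genes called in either direction were 57.6% and 63.1%. Among the markers of other cell types, COL1A1 rose by 0.90 and 2.33 from 1.29 CPM with DMSO, and HBB by 0.64 with CCF642-34 (0.19 with CCF642, limma adjusted p = 0.390).

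**Figure D4:**
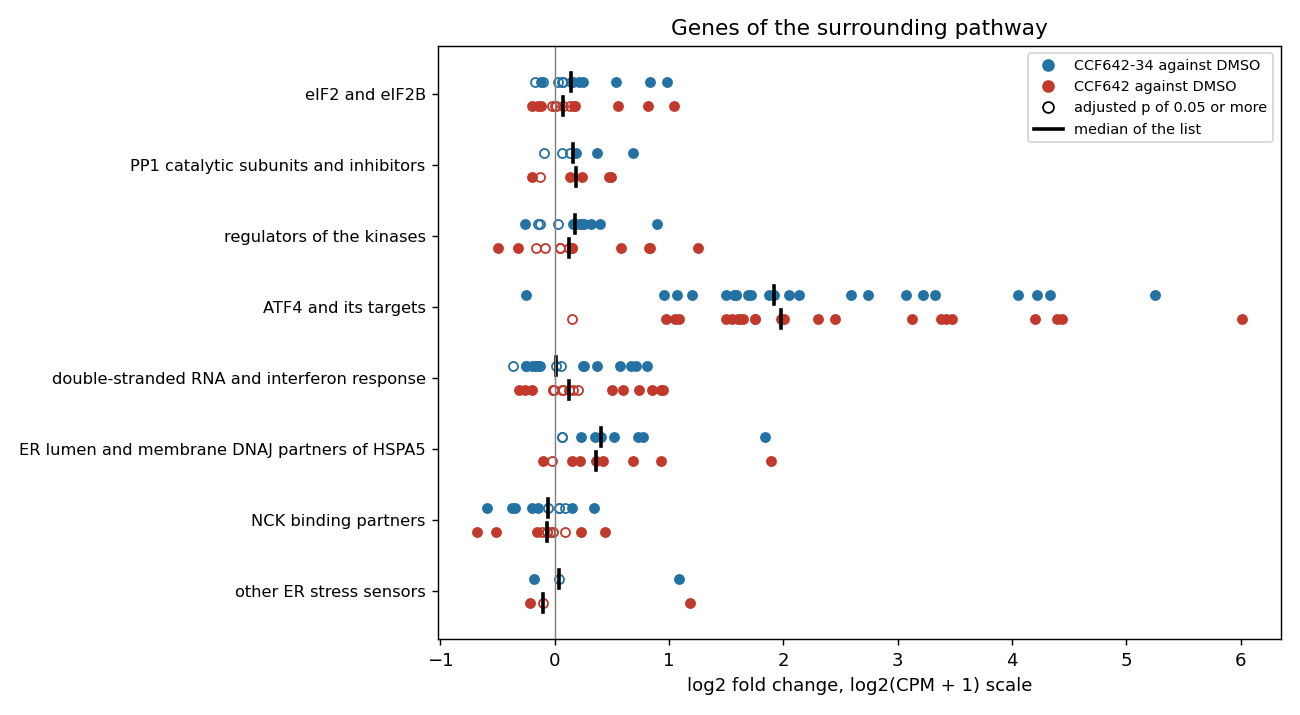
Log2 fold change of each listed gene on the log2(CPM + 1) scale (x axis) by gene list (y axis), with CCF642-34 in blue and CCF642 in red; filled points have a limma adjusted p under 0.05 and black bars are list medians. Among the 8 lists plotted, which leave out the members and the cell type markers, the medians lie between −0.10 and 0.41 except for ATF4 and its targets (1.92 and 1.98).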

How the data were processed

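RNA of 6 MM1.S libraries, in 3 groups of 2 named in the labels, was analysed. For each library the authors deposited CPM values, read as such from the numbers, without log transformation. Per the submitters' processing notes, STAR, edgeR (3.24.3), limma (3.38.3) and hg19 were used. The strand setting and annotation are not given in the sources used here. The CPM of 11048 symbols sum to 99.9% of 1e6 per library. The highest value of each gene was at least 1.50 CPM. Every value (100%) was a whole multiple of a read within 0.01 reads, so reads were recovered, and the edgeR quasi-likelihood test on them called 6440, 6932 and 3724 genes (CCF642-34 and CCF642 against DMSO, and CCF642-34 against CCF642). The table of the whole series was not used.

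The main test was limma (3.58.1, in R 4.3.3; moderated with a trend, two-sided) on log2 of TMM-scaled CPM plus a pseudocount of 1, with the TMM factors from edgeR (4.0.16). All 3 groups were fitted together without covariates (3 residual and 42.9 prior degrees of freedom), with Benjamini-Hochberg adjustment over 11048 genes. On simulated reads for 11048 genes, 97 of 100 genes changed 3-fold and 79 of 100 changed 1.5-fold were called for CCF642-34 against DMSO, and 97 and 78 for CCF642 against DMSO, with 4 and 8 of 10848 unchanged genes called. Most genes were unchanged in that simulation, while 57.6% and 63.1% were called here, so its false calls give no rate for these data. Replicates differed beyond sampling noise (chi-square per gene 2.29 to 4.50) and were counted separately. Transcript lengths and overlapping exons came from GENCODE 29 and promoters from RefSeq (GRCh38.p14), both on another build than the counts. Alternatives were library size alone or DESeq2 size factors for scaling, a mean CPM of at least 5, pseudocounts of 0.1 and 4, edgeR, DESeq2 (1.42.0), fits of the compared groups only, a replicate block, the longest transcript and the omission of each library. Counting errors cover the counting of reads only.

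The members and lists were chosen with earlier results of these data known. Named genes were all members, from each list up to 2 genes with the largest rise and 2 with the largest fall under CCF642-34 (adjusted p under 0.05), all of the other ER stress sensors (ERN1, ATF6 and ATF6B), and, for members spanning at least 1 on the log2 scale over group means, the 3 genes nearest in profile among genes whose log2(CPM + 1) averaged 3 or more. Some genes that this rule gives are not reported here.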

Additional observations from a re-analysis of the deposited data

How the results depend on the processing

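Of 405 repeats of the members' fold changes (9 genes, 3 comparisons, 15 settings), 387 kept their direction and side of the threshold. The 3 that changed sign were not called in the main analysis. They were EIF2AK1 with CCF642-34 at −0.067 with library size alone, and NCK1 and NCK2 between the compounds at −0.040 and −0.021 without CCF642 replicate 1. Without each library in turn these ranged from −0.040 to 0.11 and from −0.021 to 0.17. In the same refits PPP1R15A lay between 2.43 and 2.50 with CCF642-34 and between 2.86 and 3.00 with CCF642. EIF2AK2 lay between −0.32 and −0.21 and between −0.23 and −0.11. The cause was not tested.

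Library size alone moved the median of all genes to −0.078, −0.13 and 0.051, so that 2497 rose and 3972 fell with CCF642-34 (3285 and 3077 with TMM), 2528 and 4738 with CCF642 (3517 and 3457) and 2406 and 1488 between the compounds (1760 and 1925). Counts of genes at 2-fold were 428, 717 and 34. They became 255, 470 and 21 with a pseudocount of 4, 665 and 98 with edgeR for CCF642-34 and between the compounds, and, between the compounds, 90 with a pseudocount of 0.1, 21 at a mean CPM of at least 5 and 61 with DESeq2. With the longest transcripts, for DMSO, CCF642 and CCF642-34, PPP1R15A over PPP1R15B was 0.816, 3.04 and 3.08, the share of EIF2AK3 28.4%, 60.5% and 53.3%, and phosphatase regulators over kinases 1.20, 3.08 and 2.53.

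Replicate numbers are shared across groups, but deviations of libraries with the same number correlated only at −0.0563 to 0.0467. No shared shift was thus detected, and the labels do not say whether libraries of the same number were prepared together. A replicate block gave 7, 9 and 5 members and 6422, 7014 and 3802 genes, with no member's call changed. Depth limited NCK1 most, whose 526 reads give a counting error of 4.36%.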
